A study of Mus musculus with 8 samples.

Results

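The subject here is how the transcriptional effect of the Mll3/4 dCD mutation differs between 2 stages of mouse pluripotent cells, epiblast stem cells (EpiSC) and epiblast-like cells (EpiLC). For each gene the effect in EpiSC (dCD minus WT) was set against the effect in EpiLC (dCD minus WT), and the difference of the effects, EpiSC minus EpiLC, is called the stage difference. The files list 32334 genes, and the 12717 that reached a value of 1 in 2 or more of the 8 libraries were tested. A stage difference was called for 1319 of these genes (10.4%) at an adjusted p under 0.05.

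The 4 groups were EpiSC dCD, EpiSC WT, EpiLC dCD and EpiLC WT, with 2 RNA-seq libraries each. All cells derive from the male mouse embryonic stem cell (ESC) line R1. The dCD line is 1 clonal line whose H3K4 methyltransferases MLL3 (KMT2C) and MLL4 (KMT2D) are catalytically dead, so the mutation and the clone cannot be told apart. ESC were held in medium with 0.4 µM PD0325901, 3 µM CHIR99021 and LIF, then taken to EpiLC in 2 days with 20 ng/ml activin A, 12 ng/ml bFGF and 10 µl/ml KSR, or to EpiSC by passaging for 8 days or longer in the same doses of activin A and bFGF without KSR. Each value is a deposited abundance per gene, headed TPM but scaled by 1 factor per library, and all differences are on log2(value + 1), which understates the change of low genes. The labels number the libraries of a group 1 and 2 without saying that they came from separate cultures, so the p-values measure the spread between these libraries, which may be technical.

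MLL3 and MLL4 deposit most of the H3K4me1 that marks enhancers, and a catalytic mutation removes the mark while the proteins can still be present. EpiLC are a short-lived formative state from which primordial germ cells can be induced. EpiSC resemble the later, gastrulating epiblast, carry genes of the primitive streak and node, and have mostly lost that capacity.

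The targeted genes stayed expressed, which cannot check a catalytic mutation: Kmt2c had 6.06 and 6.98 in EpiSC dCD against 4.72 and 5.26 in EpiSC WT, and 2.57 and 5.97 in EpiLC dCD against 5.79 and 3.55 in EpiLC WT. Kmt2d had 6.7 and 7.93 in EpiSC dCD against 4.86 and 4.96 in EpiSC WT, and 2.72 and 7.59 in EpiLC dCD against 7.15 and 4.15 in EpiLC WT, with no call for either gene. The streak markers fitted the stage labels, while the epiblast markers were mixed. The summed level of 6 epiblast markers (Pou5f1, Sox2, Dnmt3b, Otx2, Fgf5, Utf1) was 1770 and 1640 in EpiSC dCD, 2020 and 2080 in EpiSC WT, 2930 and 2520 in EpiLC dCD and 2970 and 3050 in EpiLC WT. Most of that sum was Pou5f1. Fgf5 went against it, at 266 and 200 in EpiSC dCD and 243 and 215 in EpiSC WT. In EpiLC, Fgf5 had 63.5 and 58.0 in dCD and 85.2 and 78.8 in WT, and Otx2 was also lower there. Summed levels of 6 naive ESC markers were 12.3 and 19.5 in EpiSC dCD and 7.01 and 6.57 in EpiSC WT. They were 43.5 and 43.3 in EpiLC dCD and 17.6 and 17.3 in EpiLC WT. Sums over 3 streak markers (T, Mixl1, Eomes) were 575 and 584 in EpiSC dCD and 333 and 245 in EpiSC WT, against 28.7 and 28.6 in EpiLC dCD and 16.1 and 13.4 in EpiLC WT. The tables of the stages appear to have been scaled apart, so levels across stages are given as a description and were not tested. The EpiLC libraries were the less even. Replicate differences had an SD of 0.524 on the log2 scale in EpiLC dCD and 0.297 in EpiLC WT, against 0.256 in EpiSC dCD and 0.224 in EpiSC WT. EpiLC dCD replicate 1 and EpiLC WT replicate 2 both read short transcripts higher than their partners (correlation of replicate 1 minus replicate 2 with log2 transcript length across 12610 genes, -0.27 in EpiLC dCD and 0.25 in EpiLC WT, a description over genes that share libraries). Without both of these libraries, 1044 stage differences were called, of which 760 were among the 1319.

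In EpiSC, dCD against WT gave 1842 calls (14.5% of tested genes), 963 higher (7.57%) and 879 lower (6.91%). In EpiLC it gave 1288 calls (10.1%), 961 higher (7.56%) and 327 lower (2.57%). The stage difference was negative, with the EpiSC effect below the EpiLC effect, in 854 genes (6.72%) and positive in 465 (3.66%), while its median over all tested genes was -0.037. Of the 1319 genes, 899 had a stage difference of at least 1 on the log2 scale. The calls fell into a few classes. Opposite calls at the 2 stages made up 119 genes: 86 (0.676% of tested genes) were higher in dCD EpiLC and lower in dCD EpiSC, and 33 (0.259%) were lower in dCD EpiLC and higher in dCD EpiSC. A call at EpiSC alone was found for 308 genes that were higher (2.42%) and 335 that were lower (2.63%) in dCD, and a call at EpiLC alone for 340 that were higher (2.67%) and 74 that were lower (0.582%). A gene called at 1 stage alone is not shown to be unchanged at the other. In the same limma fit the other stage had an unadjusted p under 0.05 in 64 of the 308 and 103 of the 335. The same held in 73 of the 340 and 22 of the 74. The remaining 39 changed in the same direction to an unequal extent and 104 passed at neither stage by itself. Opposite classes rested on a call at each stage and were unsteady: of the 86 genes 11, and of the 33 genes 2, kept their class in all 8 fits with 1 library left out. The counts depended on single libraries: leaving out 1 library at a time gave between 426 calls (without EpiSC WT replicate 2) and 3225 calls (without EpiLC dCD replicate 2), with 0 genes called in the opposite direction to the full set in any of these fits.

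**Figure D1:**
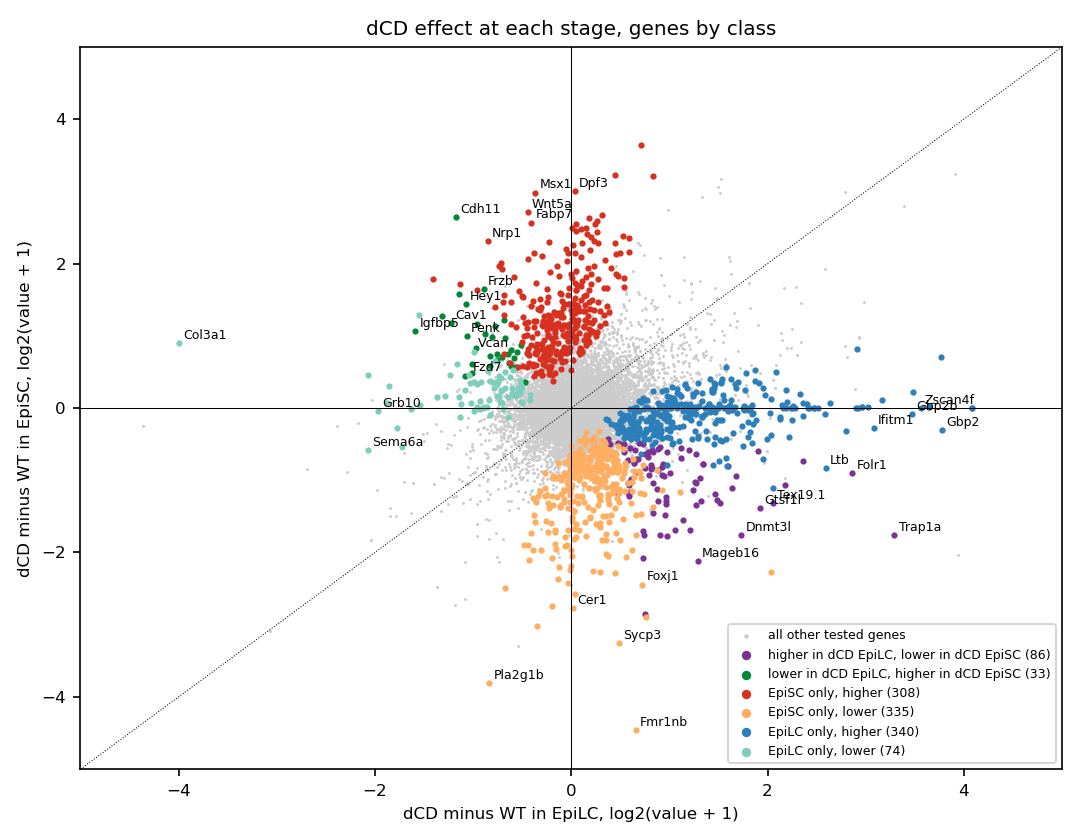
Effect of dCD in EpiLC (horizontal axis) against that in EpiSC (vertical axis), both as dCD minus WT on log2(value + 1), with 1 point per tested gene coloured by class and the genes named for their class labelled. Genes on the dotted diagonal have equal effects, and Trap1a (3.29 in EpiLC, -1.76 in EpiSC) and Cdh11 (-1.17 in EpiLC, 2.65 in EpiSC) lie in the opposite corners.

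Genes that reversed from higher in dCD EpiLC to lower in dCD EpiSC were led by germline and X-linked antigen genes. The X-linked tumor rejection antigen gene Trap1a had values of 4.80 and 6.97 in EpiSC dCD against 21.8 and 22.2 in EpiSC WT, and of 86.4 and 66.5 in EpiLC dCD against 6.68 and 7.0 in EpiLC WT. Its stage difference was -5.05 ± 0.26 (SE, adjusted p = 0.00045), and the groups did not overlap at either stage. Mageb16, an X-linked gene of the MAGE family, stood at 0.161 and 0.265 in EpiSC dCD against 4.04 and 4.46 in EpiSC WT, but at 24.3 and 21.3 in EpiLC dCD against 7.87 and 9.67 in EpiLC WT (stage difference -3.40 ± 0.21, adjusted p = 0.00077). For Dnmt3l, the cofactor of de novo DNA methyltransferases in germ cells, values were 0.237 and 0.0847 in EpiSC dCD against 3.1 and 2.72 in EpiSC WT, and 33.2 and 25.9 in EpiLC dCD against 7.93 and 8.31 in EpiLC WT (stage difference -3.49 ± 0.22, adjusted p = 0.00077). For Mageb16 and Dnmt3l, values under 1 in dCD EpiSC stood beside higher values in dCD EpiLC than in WT. Tex19.1, which restrains retrotransposons in germ cells, was at 2.11 and 2.77 in EpiSC dCD against 8.08 and 6.94 in EpiSC WT, and at 50.3 and 46.2 in EpiLC dCD against 10.1 and 11.5 in EpiLC WT (stage difference -3.37 ± 0.21). Folr1, a folate receptor, had 3.58 and 2.94 in EpiSC dCD against 6.31 and 7.59 in EpiSC WT, and 40.9 and 29.0 in EpiLC dCD against 3.98 and 3.77 in EpiLC WT (stage difference -3.76 ± 0.26). Gtsf1l, a paralog of the piRNA pathway gene Gtsf1, had 1.27 and 1.47 in EpiSC dCD against 5.15 and 5.28 in EpiSC WT, and 17.6 and 11.6 in EpiLC dCD against 3.00 and 3.05 in EpiLC WT (stage difference -3.31 ± 0.27). All 6 kept the call of the stage difference when any single library was left out. Folr1 was no longer called in EpiSC without any 1 of the 4 EpiSC libraries, and the other 5 kept both calls. Folr1 also lost its EpiSC call with a pseudocount of 5 or the replicate block.

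The smaller group that reversed the other way held genes of adhesion, signalling and mesenchyme. Cdh11, a mesenchymal cadherin, was at 12.9 and 15.1 in EpiSC dCD against 2.08 and 0.857 in EpiSC WT, and at 0.812 and 0.877 in EpiLC dCD against 4.03 and 2.44 in EpiLC WT (stage difference 3.82 ± 0.39, adjusted p = 0.0027). Frzb, a secreted Wnt antagonist, reached 55.1 and 45.4 in EpiSC dCD against 17.9 and 13.1 in EpiSC WT, but only 0.482 and 0.522 in EpiLC dCD against 1.73 and 1.83 in EpiLC WT (stage difference 2.53 ± 0.24, adjusted p = 0.0023). In both genes the dCD values lay above WT in EpiSC and below WT in EpiLC without overlap. Hey1, a repressor induced by Notch, had 13.2 and 14.9 in EpiSC dCD against 5.11 and 4.03 in EpiSC WT, and 1.32 and 0.907 in EpiLC dCD against 3.26 and 3.6 in EpiLC WT (stage difference 2.51 ± 0.23). Cav1, the main protein of caveolae, had 14.4 and 15.8 in EpiSC dCD against 6.00 and 6.15 in EpiSC WT, and 3.98 and 5.44 in EpiLC dCD against 12.7 and 11.8 in EpiLC WT (stage difference 2.40 ± 0.21). The insulin-like growth factor binding protein gene Igfbp5 (stage difference 2.65 ± 0.23) and the opioid precursor gene Penk (2.07 ± 0.19) behaved in the same way. The effect on Igfbp5 was 1.06 in EpiSC and -1.59 in EpiLC, and that on Penk was 1.0 in EpiSC and -1.07 in EpiLC. None of these 6 stage differences lost its call when any single library was left out, but only Cav1 and Penk kept the calls at both stages. Cdh11 lost its EpiLC call in 5 of the 8 fits (without EpiLC dCD replicate 1, either EpiLC WT library or either EpiSC dCD library). Frzb and Hey1 lost theirs without either EpiLC WT library, and Igfbp5 lost its EpiSC call without EpiSC dCD replicate 1 or EpiSC WT replicate 2. With a weight per group, and also with the replicate block, Cdh11, Frzb, Hey1 and Penk were called in EpiSC alone. Igfbp5 was called in EpiLC alone with the replicate block.

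**Figure D2:**
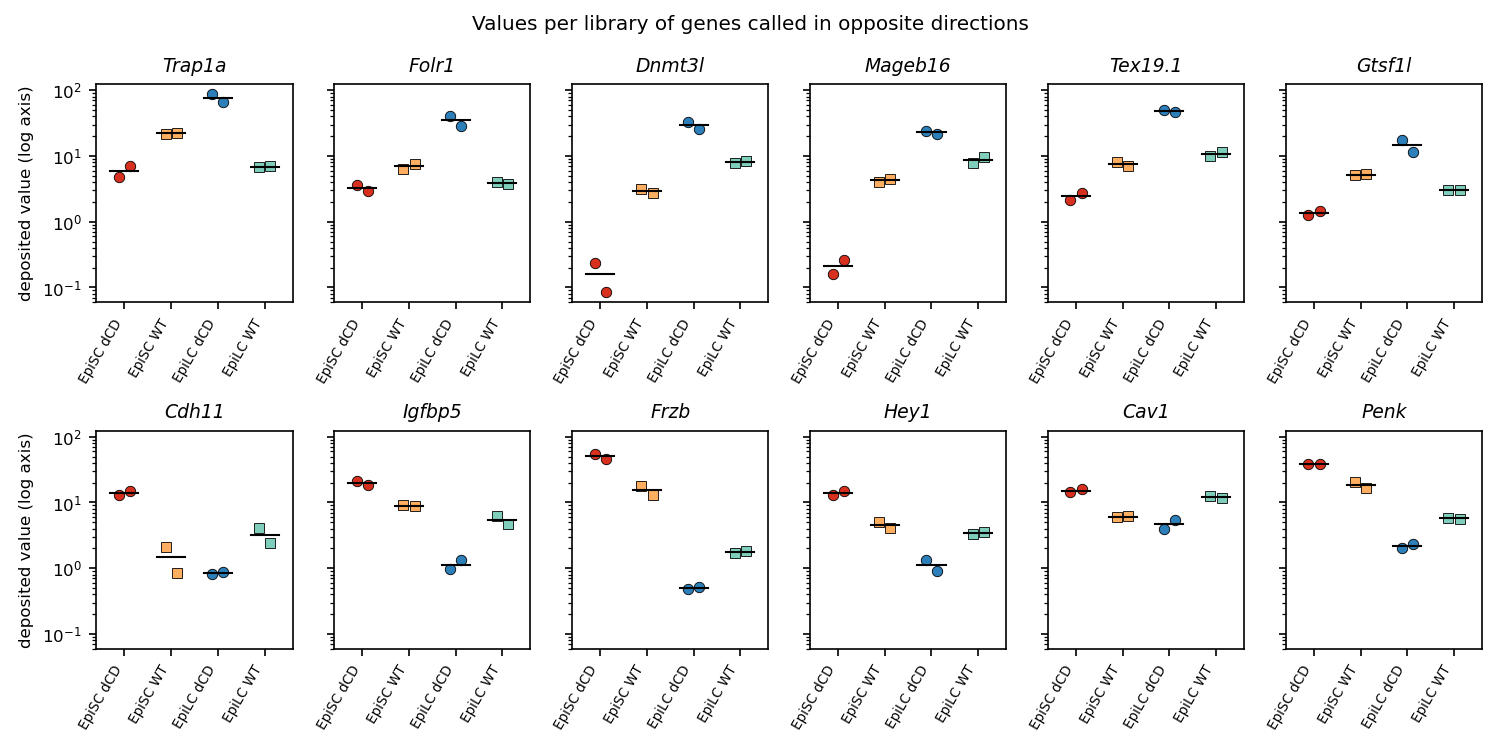
Deposited value per library (log axis) of the 12 named genes called in opposite directions, with 1 point per library and a bar at the mean of the 2 libraries. In the upper row EpiSC dCD lies below EpiSC WT and EpiLC dCD above EpiLC WT, and in the lower row the reverse holds.

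Genes whose lower level in dCD was called only in EpiSC included testis, ciliary and node genes. Fmr1nb, an X-linked cancer-testis antigen gene, was at 0.432 and 0.921 in EpiSC dCD against 36.0 and 35.2 in EpiSC WT, and at 88.0 and 59.5 in EpiLC dCD against 42.0 and 49.3 in EpiLC WT. Its EpiSC effect was -4.46 and its EpiLC effect 0.66 (adjusted p = 0.12 in EpiLC), a stage difference of -5.12 ± 0.31. Sycp3, a component of the synaptonemal complex of meiosis, had 0.355 and 0.226 in EpiSC dCD against 9.26 and 13.7 in EpiSC WT, and 39.3 and 32.8 in EpiLC dCD against 24.5 and 26.2 in EpiLC WT (stage difference -3.74 ± 0.27). Cer1, which encodes a secreted inhibitor of Nodal, BMP and Wnt, had 26.7 and 36.0 in EpiSC dCD against 261 and 181 in EpiSC WT (EpiSC effect -2.77), and was under 0.1 in all 4 EpiLC libraries. Foxj1, the transcription factor that switches on motile cilium genes, had 8.02 and 5.48 in EpiSC dCD against 39.9 and 41.4 in EpiSC WT, and 2.65 and 2.19 in EpiLC dCD against 0.922 and 1.22 in EpiLC WT (stage difference -3.17 ± 0.26, adjusted p = 0.0015). The phospholipase gene Pla2g1b fell to 1.19 and 1.21 in EpiSC dCD, against 32.4 and 27.4 in EpiSC WT, and had 91.6 and 56.2 in EpiLC dCD against 121 and 137 in EpiLC WT (stage difference -2.97 ± 0.31). Its EpiLC effect of -0.83 (adjusted p = 0.061) passed the test without either EpiLC dCD library, so it was then called lower at both stages. Fmr1nb was also called higher in EpiLC without EpiLC dCD replicate 2, and Foxj1 without that library or either EpiSC dCD library. Of the 335 genes of this class, 49 had all 4 EpiLC values under 1.

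Genes whose higher level in dCD was called only in EpiSC were led by developmental regulators. Msx1, a homeobox gene induced by BMP, reached 12.6 and 19.4 in EpiSC dCD against 1.38 and 0.862 in EpiSC WT, and stood at 1.28 and 0.954 in EpiLC dCD against 1.79 and 1.65 in EpiLC WT (stage difference 3.35 ± 0.32). Wnt5a, a ligand of non-canonical Wnt signalling, had 10.6 and 12.8 in EpiSC dCD against 0.845 and 1.02 in EpiSC WT, and stayed under 1 in all EpiLC libraries (stage difference 3.16 ± 0.21). Fabp7, a fatty acid binding protein of neural progenitors, had 39.3 and 39.3 in EpiSC dCD against 6.39 and 5.25 in EpiSC WT (stage difference 2.98 ± 0.20). Stage differences for Nrp1, a co-receptor for semaphorins and VEGF, and for Dpf3, a subunit of BAF chromatin remodelers, were 3.16 ± 0.35 and 2.96 ± 0.36, and Nrp1 was also called lower in EpiLC without EpiLC dCD replicate 2. Among the 308 genes of this class, 119 had all 4 EpiLC values under 1, so their presence among tested genes rests on EpiSC. Their transcripts were long, with a median of 2187 bases against 1312 in genes without a call. This was not particular to the class: medians were 2048 for genes lower in dCD EpiLC and higher in dCD EpiSC, and 1867 for genes lower in EpiLC alone. They were 1174 for genes lower in EpiSC alone, 1243 for genes higher in EpiLC alone and 1421 for the remaining opposite class. The part of transcript length was not tested beyond removal of the length trend. After that removal 1348 stage differences were called, 1148 of them among the 1319.

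Genes higher in dCD only in EpiLC included interferon-induced and 2-cell embryo genes. Gbp2, an interferon-induced GTPase, had 64.9 and 67.5 in EpiSC dCD against 90.8 and 74.5 in EpiSC WT, but 23.8 and 26.8 in EpiLC dCD against 0.857 and 0.972 in EpiLC WT (stage difference -4.09 ± 0.18, adjusted p = 0.00037). Its EpiLC effect was 3.78, whereas the EpiSC groups lay close together. The same pattern held for Gbp2b (14.4 and 16.1 in EpiLC dCD against 0.431 and 0.502 in EpiLC WT) and for Ifitm1, an interferon-induced membrane protein gene (100.3 and 60.01 in EpiLC dCD against 8.28 and 8.30 in EpiLC WT). Gbp2 and Gbp2b are near-identical copies in part, so their reads may be split between them. Ltb, the lymphotoxin beta gene, had 6.11 and 4.80 in EpiLC dCD against 0.104 and 0.0265 in EpiLC WT, with a stage difference of -3.43 ± 0.46 that lost its call without EpiLC dCD replicate 1 and EpiLC WT replicate 2 together. It was also called lower in EpiSC without EpiSC WT replicate 1. Zscan4f, which marks the 2-cell-like state, was at 19.7 and 18.5 in EpiLC dCD against 0.852 and 0.566 in EpiLC WT, and was listed at 0 in all 4 EpiSC libraries. Of the 340 genes of this class, 127 had all 4 EpiSC values under 1.

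Few genes were lower in dCD only in EpiLC. Col3a1, a fibrillar collagen, had 14.0 and 18.8 in EpiSC dCD against 7.22 and 9.46 in EpiSC WT, and 1.15 and 2.44 in EpiLC dCD against 44.1 and 40.8 in EpiLC WT (stage difference 4.89 ± 0.36, adjusted p = 0.0011). Without either EpiLC dCD library it was also called higher in EpiSC. Grb10, an imprinted adaptor of growth factor receptors, had 31.9 and 40.2 in EpiSC dCD against 37.5 and 36.2 in EpiSC WT, and 8.53 and 13.4 in EpiLC dCD against 49.9 and 40.5 in EpiLC WT (stage difference 1.93 ± 0.31). The proteoglycan gene Vcan (1.78 ± 0.35), the Wnt receptor gene Fzd7 (1.5 ± 0.23) and the semaphorin gene Sema6a (1.49 ± 0.32) completed the named members. Calls in this class were the least steady: when 1 of the 8 libraries was left out, Grb10 lost its call in 3 fits, Vcan in 5, Fzd7 in 1 and Sema6a in 6. The highest adjusted p came without EpiSC WT replicate 2, at 0.0619 for Grb10, 0.103 for Vcan, 0.0588 for Fzd7 and 0.126 for Sema6a.

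Genes were then described by function through 28 lists and 1 of motile cilium genes added later, each by its count of called stage differences and its median. The plot of lists by function ranks them from a median of -1.75 for the 2-cell-like list to 1.85 for the Hox clusters, beside a median of -0.037 over all tested genes. Counts are read against the 6.72% of tested genes with a negative stage difference and the 3.66% with a positive one. Some lists held members that passed the filter only with dCD values, so their counts rest partly on how members entered. Those passing through WT libraries alone were 15 of 19 in the neural, 11 of 14 in the trophoblast and 13 of 16 in the naive list. They were 11 of 13 in the germ cell specification list and 24 of 28 in the meiotic and piRNA list.

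**Figure D3:**
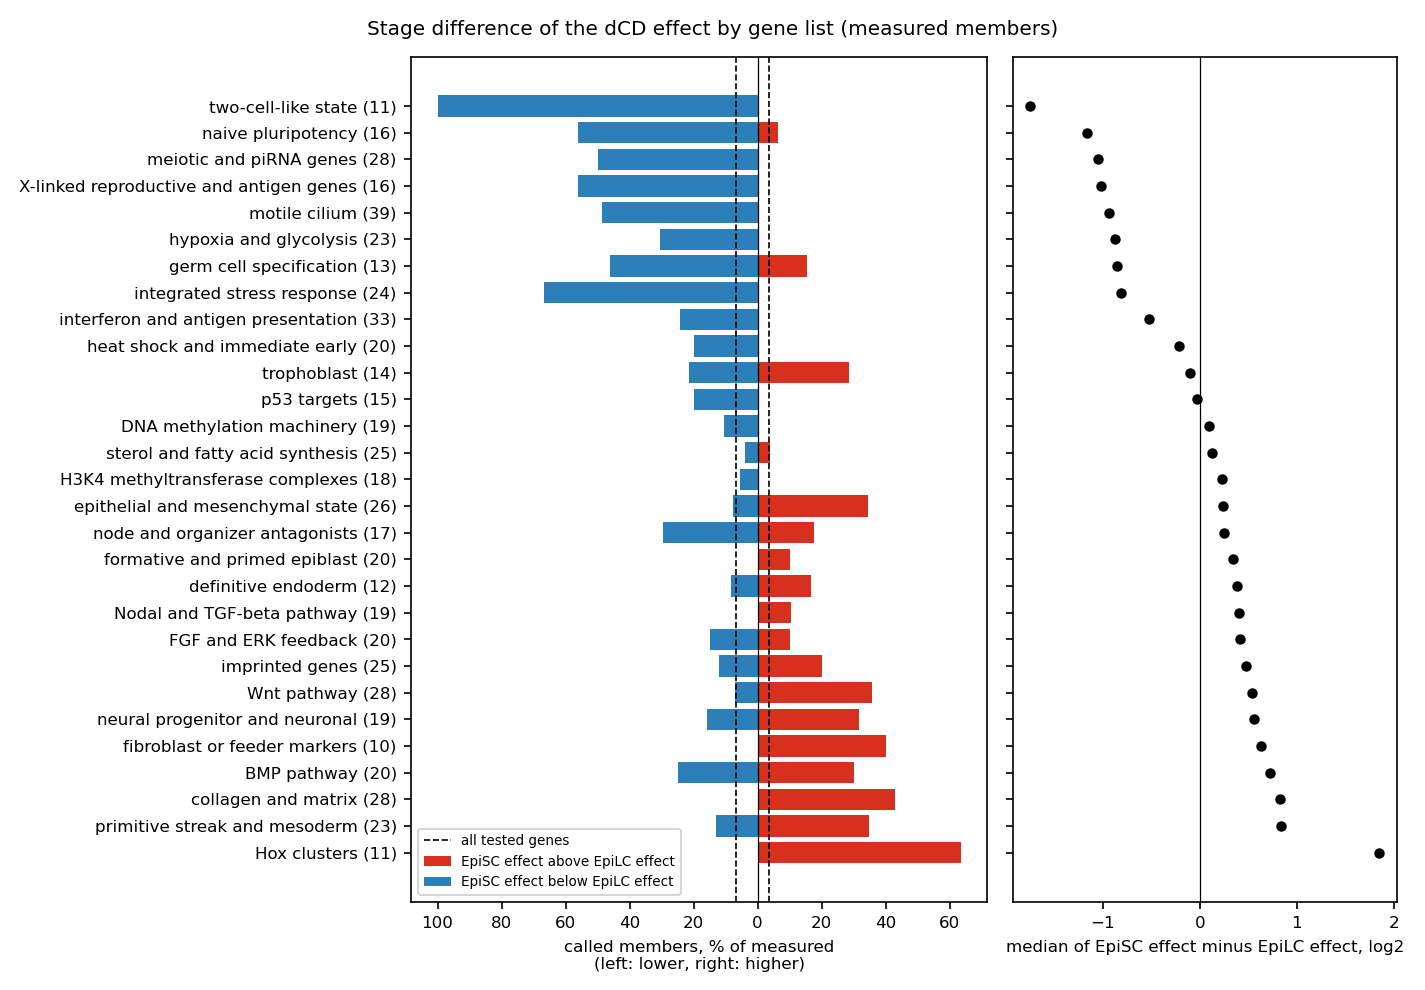
Left, share of the measured members of each gene list with a called stage difference, to the left where the EpiSC effect was below the EpiLC effect and to the right where it was above; dashed lines give the shares over all tested genes (6.72% and 3.66%). Right, median stage difference of the measured members on the log2 scale, with the number of measured members beside each list name.

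Targets of the integrated stress response, the programme by which the factor ATF4 raises amino acid synthesis and uptake, had a negative stage difference in 16 of 24 measured members and a positive one in 0 (median -0.81). In EpiSC 19 members were lower and 0 higher in dCD, whereas in EpiLC 1 was lower and 2 were higher. Of the 16, 14 were called in EpiSC alone and 2 in opposite directions. Chac1, which breaks down glutathione, had 18.6 and 11.2 in EpiSC dCD against 57.4 and 68.6 in EpiSC WT, and 36.3 and 35.3 in EpiLC dCD against 27.1 and 27.6 in EpiLC WT (stage difference -2.42 ± 0.30, adjusted p = 0.0048). Trib3, a pseudokinase induced under stress, had 19 and 14 in EpiSC dCD against 52.2 and 70.0 in EpiSC WT, and 42.7 and 37.5 in EpiLC dCD against 27.4 and 28.8 in EpiLC WT (stage difference -2.33 ± 0.26). Dissimilar parts of the programme moved together, from asparagine synthetase (Asns, 176 and 151 in EpiSC dCD against 302 and 380 in EpiSC WT) to the mitochondrial enzyme Pck2 (26.6 and 20.1 in EpiSC dCD against 72.0 and 92.0 in EpiSC WT). Those 2 were Atf3, a stress-induced transcription factor (8.22 and 10.3 in EpiSC dCD against 21 and 22.8 in EpiSC WT, 8.96 and 8.75 in EpiLC dCD against 5.93 and 5.11 in EpiLC WT), and Ddit4, an inhibitor of mTORC1 (92.5 and 85.6 in EpiSC dCD against 174 and 277 in EpiSC WT, 75.8 and 70.1 in EpiLC dCD against 37.7 and 40.4 in EpiLC WT). Their opposite calls were lost in 7 of 8 fits with 1 library left out for Atf3 (each but that without EpiLC dCD replicate 2) and in 5 for Ddit4 (without EpiLC dCD replicate 1, either EpiLC WT library or either EpiSC dCD library). Sesn2, on this list and on that of p53 targets, had a smaller stage difference of -0.68 ± 0.14, which lost its call in 6 of 8 fits with 1 library left out (adjusted p up to 0.134, without EpiSC WT replicate 2). The list's count of negative calls ran from 7 (without EpiLC WT replicate 2, EpiSC dCD replicate 2 or EpiSC WT replicate 2) to 19 (without EpiLC dCD replicate 2) and was 10 without EpiLC dCD replicate 1 and EpiLC WT replicate 2.

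The promoters of these genes were searched for TGATGNAA, the amino acid response element bound by ATF4 with C/EBP partners, on both strands of the 250 bases before each start site in RefSeq (GRCm38.p6). It was found in 7 of the 21 list members with a promoter sequence (33.3%), against 238 of 9504 tested genes (2.50%). The list was made of ATF4 targets, so a share above that of all tested genes is partly built into it. Among the 15 with a negative stage difference it was found in 5 (33.3%), the same share as in the whole list. The stretches of these 5 are shown with the match in capitals.
Chac1 (chr2:119351009-119351096, plus strand): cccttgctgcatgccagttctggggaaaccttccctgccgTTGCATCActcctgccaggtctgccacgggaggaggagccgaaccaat
Asns (chr6:7693210-7693272, minus strand): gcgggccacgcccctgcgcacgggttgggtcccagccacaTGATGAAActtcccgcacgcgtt
Atf3 (chr1:191183396-191183483, minus strand): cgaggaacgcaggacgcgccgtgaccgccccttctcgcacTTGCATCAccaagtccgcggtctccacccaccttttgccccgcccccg
Herpud1 (chr8:94386277-94386364, plus strand): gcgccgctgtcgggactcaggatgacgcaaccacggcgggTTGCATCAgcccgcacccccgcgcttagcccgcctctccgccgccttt
Pck2 (chr14:55540123-55540210, plus strand): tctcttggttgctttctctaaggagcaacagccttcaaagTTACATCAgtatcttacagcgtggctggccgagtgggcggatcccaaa
In Asns the match reads in the direction of the gene, and in the other 4 it lies on the opposite strand. Slc7a11 and Vldlr also held it, and neither had a called stage difference. A match is a description of the sequence, not of binding.

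Motile cilium genes were added as a list after the values of Foxj1 and Cfap126 had been seen, so their count is a description of that choice. Of 39 measured members, 19 had a negative stage difference and 0 a positive one (median -0.94). In EpiSC 20 were lower and 0 higher in dCD, and in EpiLC 1 was lower and 4 were higher. Nme5 had 2.12 and 1.39 in EpiSC dCD against 8.96 and 12.0 in EpiSC WT, and Enkur 0.640 and 0.774 in EpiSC dCD against 4.36 and 5.09 in EpiSC WT. Both were near or under 1 in EpiLC, where the dCD values (1.37 and 1.18 for Nme5, 0.743 and 0.476 for Enkur) lay above those of WT (0.666 and 0.428 for Nme5, 0.113 and 0.408 for Enkur) without a call. Tekt2, a tektin of ciliary microtubules, was called in opposite directions, though not without EpiLC dCD replicate 1, EpiLC WT replicate 1 or EpiSC WT replicate 2. It had 0.253 and 0.308 in EpiSC dCD against 2.00 and 2.42 in EpiSC WT, and 5.76 and 5.23 in EpiLC dCD against 1.79 and 2.98 in EpiLC WT. With 1 library left out the list's count of negative calls ran from 7 (without EpiSC WT replicate 2) to 22 (without EpiLC dCD replicate 2), and it was 11 without EpiLC dCD replicate 1 and EpiLC WT replicate 2.

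The node, where motile cilia are found in the embryo, also secretes antagonists of Nodal, BMP and Wnt, and that list split. Of 17 measured members, 5 had a negative and 3 a positive stage difference (median 0.25). Chrd, a BMP antagonist, was at 5.64 and 5.93 in EpiSC dCD against 41.0 and 37.8 in EpiSC WT (stage difference -2.61 ± 0.17). The notochord homeobox gene Noto was at 0.560 and 0.492 in EpiSC dCD against 3.97 and 4.74 in EpiSC WT, and Shh, the ligand secreted by the notochord, at 4.84 and 4.19 in EpiSC dCD against 9.96 and 11 in EpiSC WT. Cer1 has been given, and Nog, another BMP antagonist, was called in EpiLC alone, where it was higher in dCD (effect 0.77). The 3 positive calls were Wnt antagonists. Dkk1 was at 60.7 and 68.7 in EpiSC dCD against 31.4 and 24.6 in EpiSC WT, and Sfrp1 was called in EpiLC alone, where it was lower in dCD. Frzb has been described. The median of this list changed sign without 1 library, with values from -0.00543 to 0.62. Its positive calls ran from 1 (without EpiLC WT replicate 1, EpiSC dCD replicate 2 or EpiSC WT replicate 2) to 4, and its negative calls from 3 (without either EpiLC WT library or EpiSC WT replicate 2) to 5.

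Genes of the primitive streak and mesoderm had a positive stage difference in 8 of 23 measured members and a negative one in 3 (median 0.84), with 15 higher and 3 lower in dCD EpiSC, and 5 higher and 3 lower in dCD EpiLC. Of the 23, 17 would have been measured through WT libraries alone, so the list was partly measured through its values in dCD. The positive calls ran from 3 (without EpiLC WT replicate 1) to 9 and the negative ones from 2 to 4 when 1 library was left out. Msgn1, a regulator of presomitic mesoderm, had 5.95 and 7.68 in EpiSC dCD against 0.692 and 0.498 in EpiSC WT and was under 1 in EpiLC (stage difference 2.18 ± 0.23). Its call was lost with a pseudocount of 0.1. The T-box gene Eomes, also on the trophoblast list, had 195 and 167 in EpiSC dCD against 66.3 and 39.8 in EpiSC WT, and 9.67 and 9.53 in EpiLC dCD against 10.7 and 8.55 in EpiLC WT. Its stage difference of 1.79 ± 0.33 lost its call in 3 of 8 fits with 1 library left out (adjusted p up to 0.0765, without EpiLC WT replicate 1). Mixl1 stood at 87.8 and 98.2 in EpiSC dCD against 25.7 and 9.35 in EpiSC WT, and between 0.906 and 1.29 in EpiLC. Against this trend, Apela, a ligand of the apelin receptor, was called in opposite directions in all 8 of those fits, with 75.9 and 76.0 in EpiSC dCD against 158 and 172 in EpiSC WT, and 53.9 and 44.5 in EpiLC dCD against 13.8 and 16.3 in EpiLC WT (stage difference -2.75 ± 0.18). T was higher in dCD at both stages but by more in EpiLC, where it had 17.8 and 18.2 in dCD against 4.25 and 3.75 in WT. Some endoderm markers moved with the streak genes. The summed level of 5 extraembryonic endoderm markers, of 8 listed, was 239 and 221 in EpiSC dCD against 112 and 77.1 in EpiSC WT. It was 8.89 and 11.6 in EpiLC dCD against 6.26 and 5.01 in EpiLC WT. In EpiSC most of the sum was Sox17 and Gata4. The definitive endoderm list was split in EpiSC, with 5 of 12 measured members higher and 3 lower in dCD. Afp, which defines visceral endoderm, was under 1 in all 8 libraries, and the part of such cells in the result was not tested.

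The Wnt list had a positive stage difference in 10 of 28 measured members and a negative one in 2 (median 0.54). In EpiSC 12 were higher and 4 lower in dCD, and in EpiLC 2 were higher and 8 lower. Positive calls ran from 5 (without EpiSC WT replicate 2) to 11, and the negative ones from 1 (without EpiLC dCD replicate 1 or any 1 of the 4 WT libraries) to 3. Its ligands Wnt3 (30.3 and 30.1 in EpiSC dCD against 10.7 and 7.46 in EpiSC WT), Wnt5a, Wnt5b and Wnt11 were among the 10, as were Myc, Sfrp1 and Fzd7, called in EpiLC alone, where they were lower in dCD. Sp8, a zinc finger gene on this list and that of the streak, was called in opposite directions in 3 of 8 fits with 1 library left out, and not without EpiLC dCD replicate 1 or any 1 of the 4 WT libraries. It had 5.18 and 5.66 in EpiSC dCD against 2.39 and 2.18 in EpiSC WT, and 1.15 and 1.48 in EpiLC dCD against 2.65 and 2.74 in EpiLC WT. Wnt8a, by contrast, was lower in dCD at both stages. The BMP list had 6 positive and 5 negative calls among 20 (median 0.72), with 9 higher and 2 lower in dCD EpiSC, and 5 higher and 1 lower in dCD EpiLC. Its positive calls ran from 2 (without EpiLC WT replicate 1, EpiSC dCD replicate 2 or EpiSC WT replicate 2) to 8, and its negative ones from 1 (without any 1 of the 4 WT libraries) to 5. Its ligand Bmp4 (23.5 and 29.9 in EpiSC dCD against 7.0 and 6.72 in EpiSC WT) and its targets Msx1 and Msx2 (Msx2 at 4.10 and 6.68 in EpiSC dCD against 0.351 and 0.231 in EpiSC WT) were higher, and its antagonist Chrd lower, in dCD EpiSC. Bmp2, Bmp8b and Nog were called in EpiLC alone, where they were higher in dCD. The call of Msx2 (stage difference 2.01 ± 0.28) was lost without EpiLC dCD replicate 1 and EpiLC WT replicate 2. The FGF list had 2 positive and 3 negative calls among 20 (median 0.41), and the positive ones ran from 0 (without either EpiLC WT library or EpiSC WT replicate 2) to 4 (without EpiLC dCD replicate 2). The epiblast ligand Fgf4 fell to 2.82 and 3.18 in EpiSC dCD, against 12.4 and 15.3 in EpiSC WT, with a stage difference of -1.41 ± 0.18, and the FGF carrier gene Fgfbp1 fell to 21 and 20.6 in EpiSC dCD, against 78.3 and 90.1 in EpiSC WT. Fgf4 was also called lower in EpiLC with a pseudocount of 5 (effect -0.416) or quantile normalization (-0.501). Spry1, a feedback inhibitor, had a stage difference of 0.98 ± 0.15 that was lost in 4 of 8 fits with 1 library left out (adjusted p up to 0.0619, without EpiSC WT replicate 2). The Nodal and TGF-beta list had 2 positive and 0 negative calls among 19 (median 0.4), and 4 positive and 2 negative ones without EpiLC dCD replicate 2. With 1 library left out, Tgfb1 lost its call in 6 of 8 fits and Inhbb in 7 (adjusted p up to 0.167 for Tgfb1 without EpiSC WT replicate 2 and for Inhbb without EpiLC WT replicate 1), and neither was called without EpiLC dCD replicate 1 and EpiLC WT replicate 2.

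The collagen and matrix list and the Hox list also had positive medians. Of 28 measured collagen and matrix genes, 12 had a positive stage difference and 0 a negative one (median 0.83). In EpiSC dCD, Fn1 (280 and 309, against 99.4 and 86.0 in EpiSC WT) and Tnc (32.7 and 49.0, against 10.8 and 8.32 in EpiSC WT) were higher, while Postn was lower in EpiLC alone (0.131 and 0.204 in EpiLC dCD against 3.71 and 2.91 in EpiLC WT). The call of Tnc was lost without EpiSC WT replicate 2 (adjusted p = 0.0536), and the list's count ran from 2 (without EpiSC WT replicate 2) to 18 (without EpiLC dCD replicate 2) positive calls with 1 library left out. The sum over 9 fibroblast markers was 39.8 and 45.7 in EpiSC dCD against 27.4 and 28.3 in EpiSC WT, and 19.6 and 23.2 in EpiLC dCD against 75.8 and 72.2 in EpiLC WT, with Lum under 1 in all 8 libraries and Twist2 between 0.804 and 1.53. In EpiLC WT most of that sum was Col3a1, which is on the matrix list too. Other markers went against the sum: Col1a1 had 3.14 and 3.44 in EpiSC dCD against 5.78 and 4.76 in EpiSC WT, Thy1 had 2.62 and 2.30 in EpiSC dCD against 3.45 and 4.30 in EpiSC WT, and Col1a2 had 5.21 and 7.69 in EpiLC dCD against 4.17 and 3.89 in EpiLC WT. The part of fibroblast-like cells was not tested, and fewer cells of a type and less RNA per cell cannot be told apart in bulk RNA. In the fibroblast list of 10 measured genes, 4 had a positive stage difference and 0 a negative one (median 0.63), with 2 positive without any single library other than the EpiLC dCD ones, and that of Col1a1 (1.19 ± 0.25) was lost in 6 of 8 fits (adjusted p up to 0.134, without EpiSC WT replicate 2).

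Hox genes were low throughout. Of 39 listed, 11 were measured and 7 had a positive stage difference (median 1.85), and 6 of the 11 would have been measured through WT libraries alone. Hoxc10 was at 0.275 and 0.196 in EpiLC dCD against 3.96 and 4.39 in EpiLC WT, and Hoxb9 at 1.14 and 0.926 in EpiLC dCD against 3.34 and 3.80 in EpiLC WT. In EpiSC the dCD libraries differed among themselves, with Hoxa10 at 1.06 and 5.34 in EpiSC dCD against 0.0873 and 0.0143 in EpiSC WT, while EpiLC had 0.438 and 0.551 in dCD against 2.70 and 3.24 in WT. Hoxd1 was higher in dCD EpiSC alone (2.30 and 3.77, against 0.049 and 0.195 in EpiSC WT). The call of Hoxb9 was lost without EpiLC WT replicate 2 or EpiSC WT replicate 2 (adjusted p up to 0.0649, without EpiSC WT replicate 2), and the list's 7 calls became 2 in either of these fits and 10 without EpiSC dCD replicate 1. Just 1 Hox call was left without EpiLC dCD replicate 1 and EpiLC WT replicate 2.

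**Figure D4:**
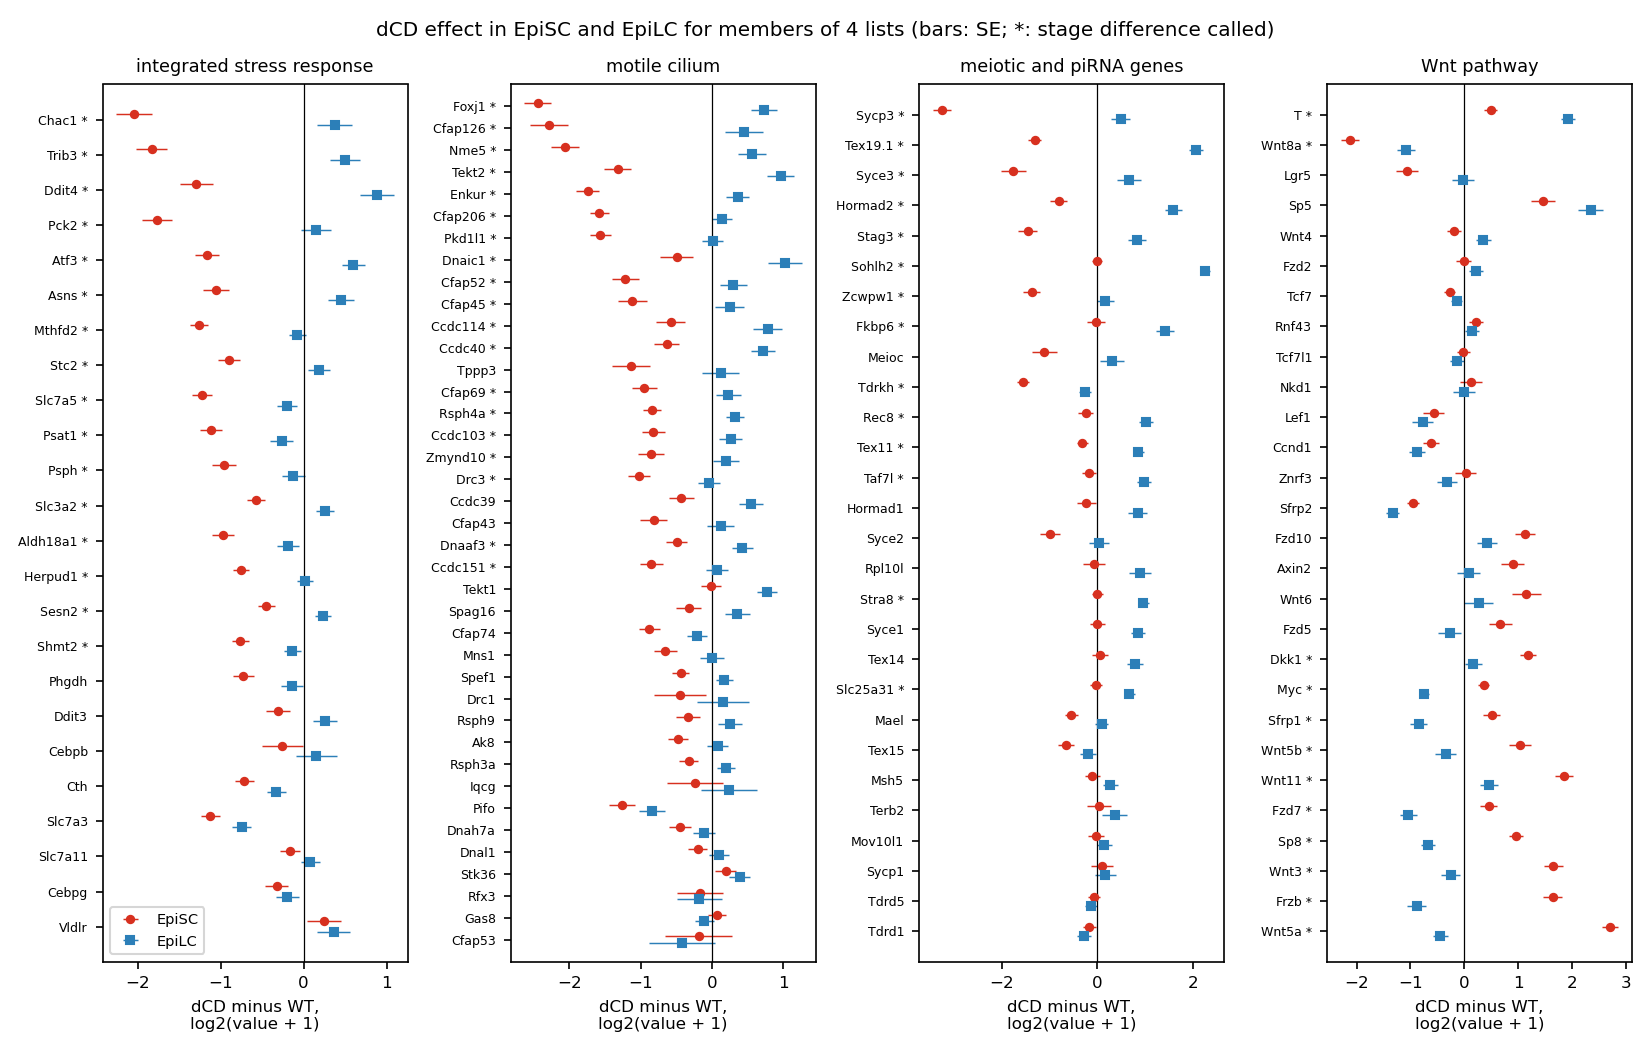
Effect of dCD in EpiSC (circles) and in EpiLC (squares) with SE for every measured member of 4 lists, ordered by the stage difference, on log2(value + 1). Stars mark a called stage difference; in the stress response and motile cilium lists most EpiSC effects lie to the left (Chac1 at -2.04, Foxj1 at -2.44), while Wnt ligands such as Wnt5a lie to the right in EpiSC (2.71).

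Genes of meiosis and the piRNA pathway had a negative stage difference in 14 of 28 measured members and a positive one in 0 (median -1.05). Both stages contributed: 11 were lower and 0 higher in dCD EpiSC, and 13 were higher and 0 lower in dCD EpiLC. With 1 library left out the negative calls ran from 8 (without either EpiLC WT library or EpiSC WT replicate 2) to 20 (without EpiLC dCD replicate 2). Opposite calls were found for 3, Tex19.1, Stag3 and Hormad2, and only Tex19.1 kept them in each of these fits. Stag3 lost them in 5 (without EpiLC dCD replicate 1, either EpiLC WT library or either EpiSC dCD library) and Hormad2 in 3 (without either EpiSC dCD library or EpiSC WT replicate 2). Stag3, a cohesin subunit of meiosis, had 5.89 and 6.49 in EpiSC dCD against 15.6 and 22.5 in EpiSC WT, and 21.5 and 21 in EpiLC dCD against 10.1 and 13.1 in EpiLC WT. Hormad2, a protein of meiotic chromosome axes, had 0.195 and 0.385 in EpiSC dCD against 0.956 and 1.60 in EpiSC WT, and 5.64 and 6.53 in EpiLC dCD against 1.17 and 1.53 in EpiLC WT. Sohlh2, a germ cell transcription factor, was listed at 0 in all EpiSC libraries and stood at 10.9 and 10.9 in EpiLC dCD against 1.47 and 1.51 in EpiLC WT. The promoters of this list held CACGTG, an E-box that reads the same on both strands, in 11 of 25 genes (44.0%), against 946 of 9504 tested genes (9.95%). The matches nearest to the start site are shown in capitals for a gene lower in EpiSC alone, a reversing gene and a gene higher in EpiLC alone.
Sycp3 (chr10:88459504-88459586, plus strand): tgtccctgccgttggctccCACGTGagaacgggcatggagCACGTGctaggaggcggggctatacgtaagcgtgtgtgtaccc
Stag3 (chr5:138280299-138280384, plus strand): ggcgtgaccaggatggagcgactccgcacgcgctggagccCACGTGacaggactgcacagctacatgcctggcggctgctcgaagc
Fkbp6 (chr5:135350045-135350121, minus strand): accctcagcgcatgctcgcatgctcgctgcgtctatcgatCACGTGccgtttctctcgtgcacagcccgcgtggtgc
Slc25a31 and Taf7l of this list, both called higher in dCD EpiLC alone, also held CACGTG. The other members with CACGTG were Hormad1, Mael, Mov10l1, Syce2, Sycp1 and Tdrd1, and none of them had a called stage difference. Among all 61 reversing genes that were higher in dCD EpiLC and had a promoter sequence, 5 held it (8.20%). The share was 6.44% in genes higher in dCD EpiLC alone and 7.33% in genes lower in dCD EpiSC alone.

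X-linked reproductive and antigen genes had 9 negative and 0 positive stage differences among 16 measured members (median -1.02), and from 5 (without EpiLC WT replicate 1 or EpiSC WT replicate 1) to 10 negative ones with 1 library left out. In EpiLC 15 were higher in dCD and 0 lower, and in EpiSC 6 were higher and 3 lower. Of the 16, 6 would have been measured through WT libraries alone, so the list was partly measured through its high values in dCD. Rhox5 and Rhox6, reproductive homeobox genes, were higher in dCD EpiLC alone (Rhox5 at 99.1 and 71.9 in EpiLC dCD against 10.1 and 12.6 in EpiLC WT). Rhox6 was listed at 0 in all 4 EpiSC libraries. The Xlr3 genes, near-identical copies whose reads may be split, were higher in dCD at both stages with no called stage difference. Chromosome X held 72 of the 1319 genes with a stage difference (5.46%) and 508 of all tested genes (3.99%), and 26 of the 340 genes higher in dCD EpiLC alone (7.65%).

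Naive pluripotency genes had 9 negative stage differences and 1 positive among 16 measured members (median -1.16), with 13 higher and 0 lower in dCD EpiLC and 6 higher and 3 lower in dCD EpiSC. The negative calls ran from 5 (without EpiLC WT replicate 1 or either EpiSC WT library) to 10 with 1 library left out. Spp1, a secreted phosphoprotein, had 18 and 22.1 in EpiSC dCD against 17.4 and 19.3 in EpiSC WT, and 50.4 and 43.5 in EpiLC dCD against 4.20 and 4.43 in EpiLC WT (stage difference -3.05 ± 0.19). Zfp57, which keeps imprints methylated, was higher in EpiLC alone (73.1 and 71.3 in EpiLC dCD against 25.9 and 27.8 in EpiLC WT). Zfp42, also known as Rex1, was called in opposite directions, with 0.500 and 0.956 in EpiSC dCD against 3.1 and 2.97 in EpiSC WT, and 29.3 and 27.4 in EpiLC dCD against 14.0 and 14.0 in EpiLC WT. Its EpiLC call was lost without either EpiLC WT library, and also with a pseudocount of 0.1, a weight per group or the replicate block. The single positive call was the nuclear receptor gene Nr0b1, with 5.84 and 8.27 in EpiSC dCD against 0.185 and 0.188 in EpiSC WT, and 4.34 and 3.92 in EpiLC dCD against 1.69 and 1.49 in EpiLC WT. Formative and primed epiblast genes had 2 positive calls and 0 negative among 20 (median 0.34), and 7 positive and 2 negative calls without EpiLC dCD replicate 2. They were Myc (1.11 ± 0.14) and Zic2 (0.75 ± 0.12), and Zic2 was lost in 5 of 8 fits with 1 library left out (adjusted p up to 0.0789, without EpiSC WT replicate 2).

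In the list of germ cell specification, 6 of 13 measured members had a negative and 2 a positive stage difference (median -0.85). The negative calls were 3 in 5 of 8 fits with 1 library left out (without either EpiLC WT library, EpiSC dCD replicate 1 or either EpiSC WT library). The 2 were the receptor gene Kit, at 46.8 and 48.3 in EpiSC dCD against 20.5 and 13.4 in EpiSC WT and at 2.17 and 2.61 in EpiLC dCD against 3.83 and 4.51 in EpiLC WT, and Tfap2c. Tfap2c, a transcription factor of germ cells and trophoblast, was higher in dCD at both stages, with 30.7 and 28.7 in EpiSC dCD against 3.38 and 2.43 in EpiSC WT, and 3.33 and 2.83 in EpiLC dCD against 0.458 and 0.382 in EpiLC WT. Its stage difference of 1.46 ± 0.22 lost its call with a pseudocount of 0.1, so its greater size in EpiSC depended on the scale.

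All 11 measured members of the 2-cell-like list had a negative stage difference (median -1.75), 11 being higher in dCD EpiLC and 0 called in EpiSC. None of the 11 would have been measured through WT libraries alone. These genes therefore entered the test through the group where they were high, and the count supports nothing by itself. Zscan4e, for example, had 7.79 and 9.84 in EpiLC dCD against 0.233 and 0.163 in EpiLC WT, and at most 0.0162 in EpiSC, and Zscan4c had 8.77 and 7.06 in EpiLC dCD against 0.104 and 0.234 in EpiLC WT. The Zscan4 and Usp17l genes are near-identical copies, and their values share reads.

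Interferon and antigen presentation genes had 8 negative and 0 positive stage differences among 33 (median -0.52), yet they were not confined to EpiLC: 19 were higher in dCD EpiLC and 12 in dCD EpiSC. With 1 library left out the negative calls ran from 3 (without either EpiLC WT library, EpiSC dCD replicate 1 or EpiSC WT replicate 1) to 14 (without EpiLC dCD replicate 2). Of the 8, 6 were called in EpiLC alone and 2 were higher in dCD at both stages. The proteasome gene Psmb8 was among the 2, with 29.0 and 28.7 in EpiSC dCD against 18.8 and 15.2 in EpiSC WT, and 9.59 and 6.28 in EpiLC dCD against 0.744 and 0.817 in EpiLC WT. Tap2, a peptide transporter, was higher in dCD EpiLC alone (4.89 and 4.64, against 0.510 and 0.902 in EpiLC WT). The list of hypoxia and glycolysis had 7 negative and 0 positive calls among 23 (median -0.88). Slc2a1, the glucose transporter, was at 187 and 163 in EpiSC dCD against 216 and 277 in EpiSC WT, and at 308 and 254 in EpiLC dCD against 75.9 and 79.2 in EpiLC WT (stage difference -2.32 ± 0.22). Pdk1, which diverts pyruvate from mitochondria, was lower in dCD EpiSC alone (19.2 and 13.1, against 46.2 and 50.0 in EpiSC WT), and lost its call without EpiSC WT replicate 2 (adjusted p = 0.0557). For this list the count ran from 1 (without EpiSC WT replicate 2) to 13 (without EpiLC dCD replicate 2) with 1 library left out, and Aldoc was lost in 4 of those fits (adjusted p up to 0.0762, without EpiSC WT replicate 2).

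The remaining lists held fewer or mixed calls. Of 26 measured genes of epithelial and mesenchymal state, 9 had a positive and 2 a negative stage difference (median 0.24). Over fits with 1 library left out the positive calls ran from 2 (without EpiLC WT replicate 1 or EpiSC WT replicate 2) to 10, and the negative ones from 0 (without EpiLC WT replicate 1, either EpiSC dCD library or EpiSC WT replicate 2) to 5 (without EpiLC dCD replicate 2). Epcam, an epithelial adhesion gene, was lower in dCD EpiSC alone (152 and 153, against 241 and 251 in EpiSC WT), and its call was lost in 4 of 8 fits with 1 library left out (adjusted p up to 0.069, without EpiSC WT replicate 2). Among 19 neural genes 6 were positive and 3 negative (median 0.56), with 2 positive without any 1 of the 4 WT libraries and 0 negative without EpiSC WT replicate 2. The neuropeptide gene Npy had 40.7 and 34.3 in EpiSC dCD against 2.82 and 1.45 in EpiSC WT, and its call was lost with a pseudocount of 0.1. Summed neural markers (Sox1, Pax6, Tubb3, Nes) were 70.7 and 91.7 in EpiSC dCD against 91.3 and 100 in EpiSC WT, and 110 and 111 in EpiLC dCD against 83.6 and 81.7 in EpiLC WT. The trophoblast list had 4 positive and 3 negative calls among 14 (median -0.1), with 1 positive without EpiLC WT replicate 1 or EpiSC dCD replicate 2 and 1 negative without any single library other than the EpiLC dCD ones, and definitive endoderm 2 positive and 1 negative among 12 (median 0.38). The endoderm calls (Cxcr4, Gata4 and Foxa3) were each lost in at least 5 of 8 fits with 1 library left out.

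Imprinted genes had 5 positive and 3 negative calls among 25 (median 0.48), with Grb10 given above. With 1 library left out the positive calls ran from 0 (without EpiLC WT replicate 1 or EpiSC WT replicate 2) to 9 (without EpiLC dCD replicate 2), and the negative ones from 0 (without EpiLC WT replicate 1, EpiSC dCD replicate 2 or EpiSC WT replicate 2) to 4. Peg10 and Sgce, neighbours expressed from the paternal allele, were higher in dCD EpiLC alone (Sgce at 22.8 and 21.4 in EpiLC dCD against 6.7 and 8.42 in EpiLC WT). When 1 library was left out, Peg10 lost its call in 6 of 8 fits and Sgce in 3 (adjusted p up to 0.119 for Peg10 and 0.0677 for Sgce, both without EpiSC WT replicate 2). Among 18 subunits of H3K4 methyltransferase complexes 1 was called (Ash2l, -0.7 ± 0.12), and it was lost in 6 of 8 such fits. Among 19 genes of DNA methylation the calls were Dnmt3l and Zfp57, while 5 were negative and 5 positive without EpiLC dCD replicate 2. Of the stress lists, heat shock and immediate early genes had 4 negative calls among 20 (median -0.22), among them the chaperone gene Hspb8 (11.8 and 11.1 in EpiLC dCD against 4.09 and 4.32 in EpiLC WT). The p53 target list had 3 negative calls among 15 (median -0.03), and sterol and fatty acid synthesis 1 positive and 1 negative among 25 (median 0.13). Without EpiLC dCD replicate 2 the negative calls were 7 in the heat shock list, and the sterol list had 4 positive and 2 negative calls. The p53 and sterol lists had 0 calls in either direction without any 1 of the other libraries apart from EpiLC dCD replicate 1.

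Promoters differed by class in their CpG count, the density of the dinucleotide that DNA methylation acts on. In the 250 bases before the start site the median was 7 CpG in 76 promoters of genes that were higher in dCD EpiLC and lower in dCD EpiSC, and 8 in 313 promoters of genes higher in dCD EpiLC alone, against 15 in 12274 promoters of all tested genes. It was 10 for genes lower in EpiSC alone, 11 for the opposite reversal, 11.5 for genes lower in EpiLC alone and 13 for genes higher in EpiSC alone. A low count was not particular to these classes, with 8 in 25 promoters of genes called in the same direction at both stages. Genes with a called stage difference were also lower in level. Their median was 3.03 in EpiLC WT and 5.07 in EpiSC WT, against 11.8 and 14.4 over all tested genes. These are descriptions without a test. The last 100 bases before the start site are shown for 3 reversing genes with each CpG in capitals.
Trap1a (chrX:139333583-139333682, plus strand): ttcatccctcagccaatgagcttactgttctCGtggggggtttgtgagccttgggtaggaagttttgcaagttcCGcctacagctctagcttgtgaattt
Mageb16 (chrX:79671436-79671535, minus strand): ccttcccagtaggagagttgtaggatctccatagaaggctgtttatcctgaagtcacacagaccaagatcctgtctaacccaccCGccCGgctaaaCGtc
Frzb (chr2:80447397-80447496, minus strand): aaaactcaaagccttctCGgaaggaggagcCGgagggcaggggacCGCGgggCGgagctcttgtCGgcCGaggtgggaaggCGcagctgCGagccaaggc
Trap1a holds 2 CpG and Mageb16 3 in these stretches, and both were higher in dCD EpiLC and lower in dCD EpiSC. Frzb, which went the other way, holds 9. Single promoters varied within a class: Igfbp5, called in the directions of Frzb, holds 4 in this window, and Stag3, called in those of Trap1a, holds 14.

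**Figure D5:**
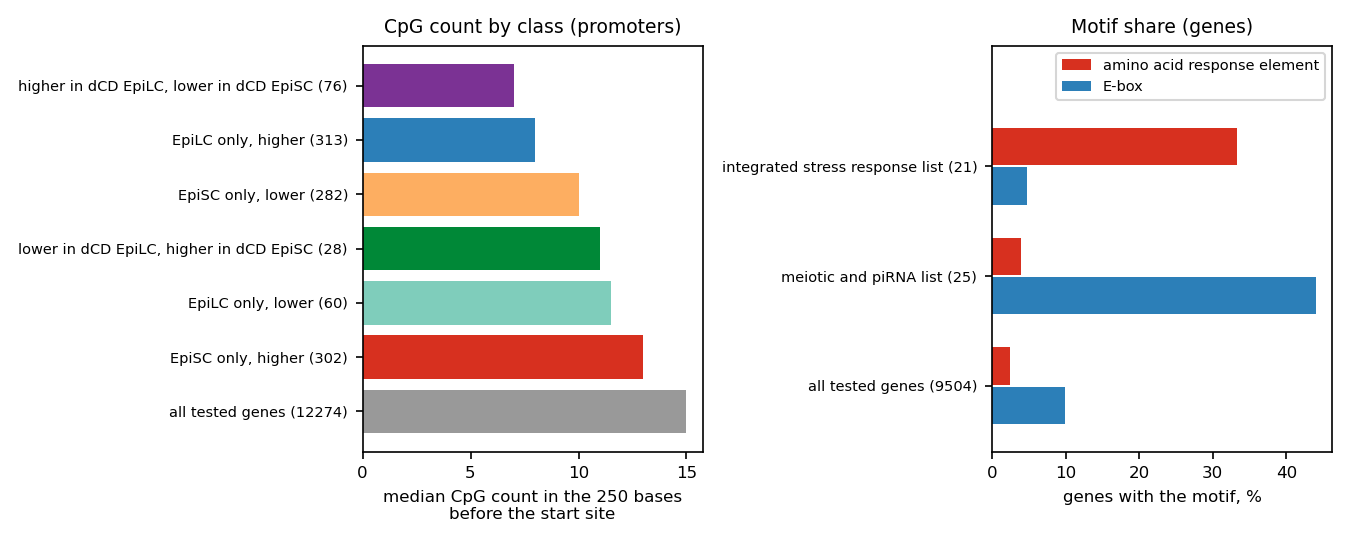
Left, median CpG count in the 250 bases before the start site, by class of stage difference (number of promoters in brackets), from 7 to 13 beside 15 for all tested genes. Right, share of genes whose promoter holds the amino acid response element or the E-box in the stress response list, the meiotic and piRNA list and all tested genes (number of genes in brackets).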

How the data were processed

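Poly(A) RNA of 4 groups with 2 libraries each was sequenced. Per the labels and the study's methods, the authors quantified reads with kallisto and summarised them per gene with sleuth on Ensembl release 96 (mm10). Tool versions were not given in the sources used here. The deposited values are a signal per gene: they are headed TPM, but column sums run from 813537 to 1033290, so each library carries its own factor and its depth is unknown. There are 6 columns of per-sample values that match none of these samples, and they were not used.

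Values were analysed as log2(value + 1) with limma 3.58.1 in R 4.3.3, with 1 mean per group, moderated variances with a trend, and Benjamini-Hochberg adjustment over 12717 genes. A call is an adjusted p under 0.05. The method was tested on simulated data with equal, independent noise in every library. That test does not cover the unequal spread or the length trend of the EpiLC libraries. Gene symbols were joined for 32013 of 32334 IDs from GENCODE release 21. Of annotated coding genes, 69.7% on chromosomes 13 to 19 and 98.4% on the others were listed. Genes named for their class had dCD values on 1 side of WT where the class needs a call and averaged 5 or more at 1 stage. Of these, the 6 with the largest stage difference in each opposite class and the 5 in each one-stage class were named. Separately, up to 3 called members of each list with the smallest p were named whatever their mean. A withheld item is not reported here. Other genes were named after their values were seen, as was the motile cilium list. The members and lists were chosen with earlier results of these data known.

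Promoters were the 250 bases before RefSeq start sites (GRCm38.p6). Alternatives covered pseudocount, filter, scaling, variance model, block and libraries left out.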

Additional observations from a re-analysis of the deposited data

Results flagged for a closer look

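In 88 named genes the effect of dCD in EpiSC differed from that in EpiLC in the limma contrast of both effects. The size of the difference, EpiSC effect minus EpiLC effect on log2(value + 1), is given for each, and no explanation was weighed. Among genes higher in dCD EpiLC and lower in dCD EpiSC it was -5.05 for Trap1a, -3.76 for Folr1, -3.49 for Dnmt3l, -3.40 for Mageb16, -3.37 for Tex19.1, -3.31 for Gtsf1l, -2.75 for Apela, -2.21 for Zfp42 and -1.76 for Atf3. Among genes lower in dCD EpiLC and higher in dCD EpiSC it was 3.82 for Cdh11, 2.65 for Igfbp5, 2.53 for Frzb, 2.51 for Hey1, 2.40 for Cav1, 2.07 for Penk and 1.64 for Sp8. Among genes higher in dCD at EpiSC alone the difference was 3.35 for Msx1, 3.16 for Nrp1, 3.16 for Wnt5a, 2.98 for Fabp7, 2.96 for Dpf3, 2.94 for Npy, 2.78 for Cbln1, 2.71 for Tnc, 2.18 for Msgn1, 2.01 for Msx2 and 1.95 for Hoxd1. It was also 1.79 for Eomes, 1.67 for Hsd17b7, 1.42 for Sprr2a1, 1.36 for Gata4, 1.29 for Cxcr4, 0.98 for Spry1, 0.91 for Tgfb1, 0.75 for Zic2 and 0.74 for Inhbb. Among genes lower in dCD at EpiSC alone it came to -5.12 for Fmr1nb, -3.74 for Sycp3, -3.17 for Foxj1, -2.97 for Pla2g1b, -2.79 for Cer1, -2.62 for Nme5, -2.61 for Chrd, -2.58 for Fgfbp1, -2.42 for Chac1, -2.33 for Trib3, -2.10 for Enkur and -2.06 for Pdk1. It was also -1.84 for Noto, -1.51 for Aldoc, -1.41 for Fgf4, -1.27 for Stmn2, -0.96 for Epcam, -0.74 for Foxa3 and -0.68 for Sesn2. For genes higher in dCD at EpiLC alone it was -4.09 for Gbp2, -3.56 for Zscan4f, -3.55 for Gbp2b, -3.43 for Ltb, -3.36 for Ifitm1, -3.12 for Rhox5, -3.05 for Spp1, -3.02 for Zscan4e, -2.93 for Zscan4c, -2.32 for Slc2a1, -2.25 for Sohlh2 and -2.24 for Hspb1. It was also -2.19 for Rhox6, -1.58 for Hspb8, -1.57 for Peg10, -1.52 for Tap2, -1.37 for Zfp57, -1.20 for Sgce, -0.76 for Dhcr7, -0.75 for Bbc3 and -0.70 for Ash2l. For genes lower in dCD at EpiLC alone it was 4.89 for Col3a1, 2.52 for Hoxc10, 1.94 for Postn, 1.93 for Grb10, 1.78 for Vcan, 1.77 for Hoxb9, 1.5 for Fzd7, 1.49 for Sema6a, 1.19 for Col1a1 and 1.11 for Myc. The named gene called in the same direction at both stages had a difference of 1.46 for Tfap2c. The named gene without a call at either stage had a difference of -1.41 for Gdf15.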

How the results depend on the processing

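None of the 88 named stage differences reversed in any of 21 alternatives. The named genes were chosen by separation, size or p in the same 8 libraries, which largely fixed the sign in advance. The kept signs therefore support nothing by themselves. Leaving out 1 library at a time kept 581 of 704 values called, and the other alternatives 1019 of 1119. Counts of calls were less steady. Depth is unknown, so the precision of low values could not be set. With 1 library left out, positive stage differences ran from 139 to 1366 and negative ones from 287 to 1859. The class higher in dCD EpiLC and lower in dCD EpiSC ran from 25 to 232, and its opposite from 4 to 102. Genes called in EpiLC alone ran from 127 to 817 (higher) and 14 to 569 (lower), and those in EpiSC alone from 97 to 500 (higher) and 93 to 553 (lower). In these fits the group left with 1 library is assumed to vary like the others.

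With no filter the first opposite class held 57 genes. With a mean of at least 5 there were 168 positive and 385 negative calls, opposite classes of 41 and 15, 140 higher and 27 lower in EpiLC alone, and 110 higher and 162 lower in EpiSC alone, from 8960 genes tested. Quantile normalization gave 54 genes in the second opposite class and 133 lower in EpiLC alone. Removing mitochondrial genes and rescaling moved the median stage difference to 0.0827, against -0.0369, and gave 825 calls, 512 of them negative, with opposite classes of 35 and 14, 40 lower in EpiLC alone and 203 lower in EpiSC alone. A weight per group gave 274 positive calls, opposite classes of 36 and 8, and 154 higher and 14 lower in EpiLC alone. Of the 119 genes with opposite calls in the main fit, 23 kept them under these weights. The cause of these shifts was not tested.

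Replicate differences of dCD and WT correlated at -0.007 in EpiSC and -0.583 in EpiLC across genes, so equal numbers were not taken to pair libraries. The replicate block gave 304 calls, 93 positive and 211 negative, of which 303 were among the 1319. It held opposite classes of 12 and 3, 100 higher and 9 lower in EpiLC alone, and 78 higher and 81 lower in EpiSC alone. Of the named genes, 31 lost their call. Crossing the EpiLC numbers, an alternative chosen after seeing the data, gave 738 positive and 1338 negative calls, opposite classes of 152 and 62, 527 higher and 148 lower in EpiLC alone, and 511 lower in EpiSC alone. Also chosen after seeing the data, removal of the length trend gave 1348 calls, and leaving out EpiLC dCD replicate 1 and EpiLC WT replicate 2 gave opposite classes of 57 and 16 and 37 lower in EpiLC alone.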
